A study of Drosophila melanogaster with 11 samples.

Results

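The tissue by genotype interaction of dCap-D3 loss asked, gene by gene, whether mutant and wild type differed in RNA level by a different amount in wing discs than in salivary glands. The log2 change of mutant over wild type in salivary glands (the gland effect) was subtracted from the log2 change in wing discs (the wing effect), so a positive difference stands for a higher mutant-to-wild-type ratio in wing discs. All 11 of the 11 libraries of the series entered the contrast, and 10355 of the 11021 genes with a symbol passed the filter on low counts and were tested. A gene is described as called where its Benjamini-Hochberg adjusted p, over all genes tested with edgeR's quasi-likelihood test, was at most 0.05. The interaction was called for 92 genes (0.888% of those tested), 33 with a positive difference (0.319%) and 59 with a negative one (0.57%).

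The 4 groups were dCap-D3 mutant wing discs (2 libraries), wild-type wing discs (3), dCap-D3 mutant salivary glands (3) and wild-type salivary glands (3), all from 3rd instar larvae kept at 25 C. Mutant larvae were w;dCap-D3c07081/c07081, homozygous for the allele c07081 in every tissue, and wild-type larvae were w1118, so both stocks carried a mutation of the white gene. Mutant and wild type were thus different stocks, and the mutation cannot be told apart from other differences between the stocks. An effect below stands for the difference between mutant and wild-type stock within a tissue. Each wing sample pooled 150 discs and each gland sample pooled 50 glands. Wing disc libraries were directional and gland libraries were non-directional, so tissue and library kind coincide and their contributions to a tissue difference cannot be told apart.

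The dCap-D3 protein belongs to the condensin II complex. Condensins are rings built from a pair of SMC ATPases and a set of non-SMC subunits, and they compact and individualise chromosomes; in Drosophila, condensin II is also known to keep homologous chromosomes apart and to loosen polytene chromosomes. The salivary gland of a late larva is a secretory organ whose cells no longer divide and carry polytene chromosomes, in which many chromatids lie in register. The wing disc is an epithelium of diploid, dividing cells that forms the adult wing and part of the thorax.

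The libraries held 52483185 to 157639957 counts, and levels below are in CPM, counts relative to library size after scaling by the trimmed mean of M-values over all libraries. A count of 0 allows up to 3 counts, or 0.012 to 0.0317 CPM in wing libraries and 0.0626 to 0.079 CPM in gland libraries, and such limits cover counting error only. The tissue labels matched their markers. The glue gene Sgs3 stood at 16.1 to 83.1 CPM in wing discs and 87798 to 175132 CPM in glands, and the wing selector gene vg stood at 37.0 to 90.7 CPM in wing discs and 0.0252 to 1.48 CPM in glands. Libraries of 1 group could stand apart. Summed digestive enzyme genes reached 2005, 22953 and 118 CPM in wild-type gland replicates 1 to 3, against 79.0 to 157.5 CPM in mutant glands, and summed fat body markers reached 11145 CPM in wild-type wing replicate 2 against 1433 and 2350 CPM in the other wild-type wing libraries. Wild-type wing replicate 3, the deepest library, carries the library number 59, where the others are numbered 22 to 31, and whether it was prepared apart from them is not given. Nothing in the labels says that replicates came from separate cultures, so p-values measure the spread between these samples, which may be technical. The 2 mutant wing libraries were the closest replicate pair. Chi-square per degree of freedom between their gene counts was 22.85, against 167.7 to 1938 for replicate pairs of the other groups. The spread among mutant wing discs may thus be understated, and so may the p-values that rest on it. In whole tissue, fewer cells of a type and less RNA per cell cannot be told apart.

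Fewer genes passed the test for a change from wild type to mutant in wing discs than in glands. Wing discs had 2 mutant libraries and glands 3. The median standard error was 0.35 for the wing effect and 0.31 for the gland effect. The counts below therefore do not compare the size of the response between tissues. In the authors' deposited comparisons, 1224 wing genes and 1781 gland genes passed a false discovery rate of 0.05 and a 2-fold change. In the same model, the wing effect was called for 138 genes (1.33% of those tested), 74 higher and 64 lower in the mutant, and the gland effect for 904 genes (8.73%), 443 higher (4.28%) and 461 lower (4.45%). Both effects were called for 79 genes, of which 76 moved the same way and 3 moved in opposite directions. Pearson's r between the wing and gland effects was 0.27 across all genes tested and 0.21 across the 6682 genes with a mean of at least 1 CPM in all 4 groups, as a description across genes, which are not independent replicates. All 92 called interactions were at least 2-fold, with absolute log2 differences between 1.27 and 11.9 and a median of 2.89, and 26 passed a test against a 2-fold difference. At an unadjusted p of at most 0.05 the interaction held 1333 genes. The median difference over all genes tested was -0.13, and each gene's difference is to be read against that shift.

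Most called interactions were genes whose change was called in 1 tissue. In 19 of the 92 the wing effect alone was called, 10 of them with a positive and 9 with a negative difference. In 57 the gland effect alone was called, 17 positive and 40 negative. Both effects were called with the same sign but different size in 10 genes and with opposite signs in 3, and neither effect was called in the remaining 3. A call in 1 tissue only was in most cases not a called difference between tissues: of the 59 genes with a wing effect alone, 19 (32.2%) had a called interaction, and of the 825 genes with a gland effect alone, 57 (6.91%) did. Mutant and wild-type CPM ranges did not overlap in wing discs for 71 of the 92 genes and in glands for 78, against 25.2% and 33.1% of all genes tested. For 57 they did not overlap in either tissue, against 9.56% of all genes tested, and for 32 of these they lay apart in opposite directions, against 2.57%. The contrast itself favours such genes, so nothing is read from these shares.

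**Figure D1:**
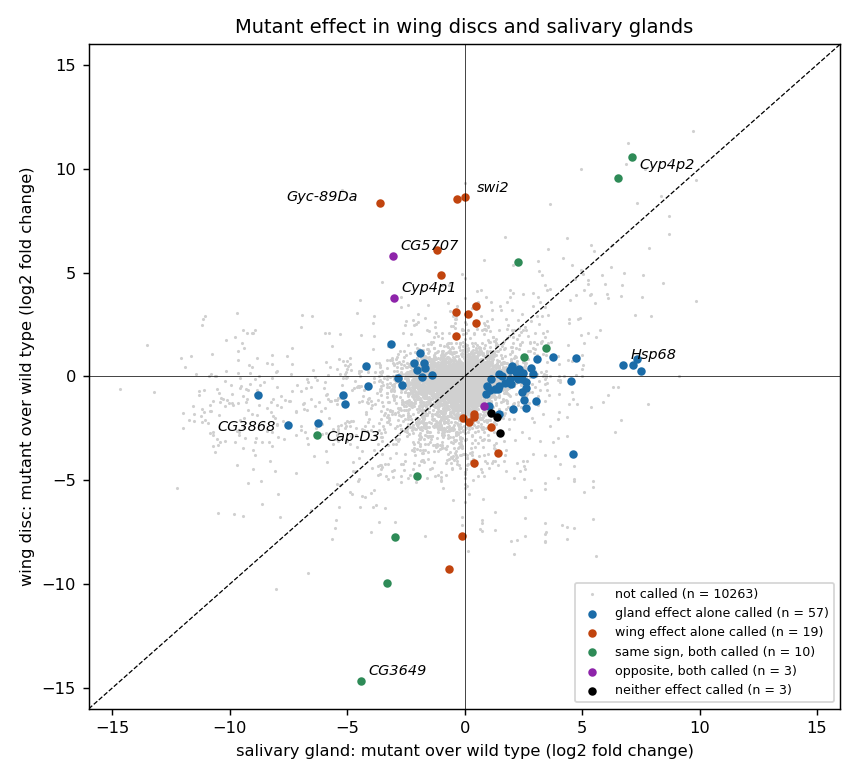
Log2 fold change of mutant over wild type in wing discs (vertical axis) against salivary glands (horizontal axis) for the 10355 genes tested, 1 point per gene, with the 92 called interactions coloured by the tissues in which the effect itself was called. Points on the dashed line have the same effect in both tissues; called genes lie away from it, 33 above and 59 below.

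The gene that carries the mutation was itself among the called interactions. Cap-D3 (2L, 5525905 to 5535958, build BDGP6; FBgn0051989) had 1.82 and 1.59 CPM in mutant wing discs, against 10.8, 8.08 and 17.6 CPM in wild-type wing discs. In mutant glands it had 0.0767, 0.0834 and 0.0992 CPM, against 6.65, 6.05 and 7.88 CPM in wild-type glands. The genotypes did not overlap in either tissue, and the mutant transcript was lower in both. Mutant wing discs kept 14.0% of the wild-type mean and mutant glands kept 1.26%, where the level rests on 3, 4 and 4 counts. The wing effect was -2.83 ± 0.34 (standard error) and the gland effect -6.29 ± 0.37, giving a difference of 3.45 ± 0.46 (adjusted p = 0.0106). Cap-D3 overlaps Coq6, tomb and asRNA:CR44793 on the opposite strand. Coq6, which the count table holds as CG7277, was the 1 of them tested, and CG7277 averaged 38.9 CPM in mutant and 43.2 CPM in wild-type wing discs, and 31.6 CPM in mutant and 35.2 CPM in wild-type glands. Of 7 condensin subunit genes tested, Cap-D3 alone was called. Differences of the shared SMC subunits were 0.57 for SMC2 (adjusted p = 0.715) and -0.04 for glu, the fly SMC4 (adjusted p = 0.999). Those of the condensin II subunit Cap-H2 and the condensin I subunit barr were 0.03 (adjusted p = 0.9999) and 0.81 (adjusted p = 0.670).

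Another gene tied to the stocks, the white gene w, also differed. It encodes a transporter of eye pigment precursors, and copies of it mark many transposon insertions. In mutant wing discs w had 8.49 and 8.05 CPM, against 0.744, 0.936 and 1.20 CPM in wild-type wing discs. Mutant glands had 3.99, 3.75 and 4.19 CPM, against 3.30, 4.72 and 7.22 CPM in wild-type glands. The genotypes were apart in wing discs and overlapped in glands. The difference was 3.45 ± 0.44 (adjusted p = 0.0095), from a wing effect of 3.10 ± 0.33 and a gland effect of -0.35 ± 0.30. The gene w lies opposite to kirre, which averaged 2.80 CPM in mutant and 4.43 CPM in wild-type wing discs, and 0.897 CPM in mutant and 1.97 CPM in wild-type glands. The calls of Cap-D3 and w ended without wing mutant replicate 1 (adjusted p = 0.0797 and 0.0791) and without wing mutant replicate 2 (adjusted p = 0.0693 for both). These fits leave 1 mutant wing library, which is assumed to vary like the other groups.

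Opposite changes in the 2 tissues were called for 3 genes. CG5707 (FBgn0026593, 3L, 2189160 to 2192221) had 5.96 and 5.07 CPM in mutant wing discs, against 0.111, 0.124 and 0.0682 CPM in wild-type wing discs, 54.8-fold higher by the group means. In mutant glands it had 0.562, 0.313 and 0.323 CPM, against 2.36, 5.37 and 2.13 CPM in wild-type glands, 8.24-fold lower. Every mutant wing library was thus above every wild-type one, and every mutant gland library was below. The wing effect was 5.78 ± 0.54, the gland effect -3.04 ± 0.47 and their difference 8.82 ± 0.72 (adjusted p = 0.0015). No annotated gene overlaps CG5707 on the opposite strand, and its call was kept in each of the 11 fits that left out 1 library, with adjusted p between 0.00204 and 0.0157.

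Cyp4p1 (FBgn0015037, 2R, 9240041 to 9242139) encodes a cytochrome P450, an oxidase of the family that handles toxins, hormones and fatty acids. It had 19.3 and 17.6 CPM in mutant wing discs, against 0.372, 3.12 and 0.602 CPM in wild-type wing discs. Mutant glands had 4.24, 2.88 and 3.72 CPM, against 26.7, 26.4 and 33.3 CPM in wild-type glands. The mutant was higher in wing discs and lower in glands, with no overlap in either tissue. The effects were 3.77 ± 0.73 in wing discs and -2.995 ± 0.68 in glands, a difference of 6.77 ± 0.9958 (adjusted p = 0.0184). Its neighbour Cyp4p2 (2R, 9237512 to 9239831), which ends 210 bases before it on the same strand, was higher in the mutant in both tissues. Cyp4p2 had 123 and 110 CPM in mutant wing discs, against 0.0905, 0.103 and 0.0481 CPM in wild-type wing discs, and 25.1, 25.6 and 24.3 CPM in mutant glands, against 0.199, 0.227 and 0.105 CPM in wild-type glands. Its wing effect of 10.56 ± 0.36 exceeded its gland effect of 7.12 ± 0.32 (difference 3.43 ± 0.44, adjusted p = 0.0095). As related genes, Cyp4p1 and Cyp4p2 may share reads, and both lie within hig on the opposite strand, so their split is uncertain; hig averaged 2.69 CPM in mutant and 0.151 CPM in wild-type wing discs, and 2.09 CPM in mutant and 1.29 CPM in wild-type glands. Without wing mutant replicate 1 or 2 the calls of Cyp4p1 (adjusted p = 0.0913 and 0.0803) and of Cyp4p2 (adjusted p = 0.0693 and 0.0559) ended. The call of Cyp4p2 also ended with limma-voom (adjusted p = 0.101). That of Cyp4p1 also ended without gland mutant replicate 2 (adjusted p = 0.0673) and replicate 3 (adjusted p = 0.0571).

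CG5335 (FBgn0034365, 2R, 18621541 to 18622986) had the reverse pattern. It had 0.932 and 1.06 CPM in mutant wing discs, against 2.69, 3.27 and 2.16 CPM in wild-type wing discs, and 94.5, 101 and 105 CPM in mutant glands, against 47.7, 55.7 and 65.9 CPM in wild-type glands. It was lower in mutant wing discs and higher in mutant glands with no overlap, at a much higher level in glands. The difference was -2.27 ± 0.28 (adjusted p = 0.0095). The call of CG5335 ended without wing mutant replicate 1 (adjusted p = 0.0916) and replicate 2 (adjusted p = 0.077). CG5335 overlaps Atg7 on the opposite strand, whose own difference was -0.03 (adjusted p = 0.9999).

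**Figure D2:**
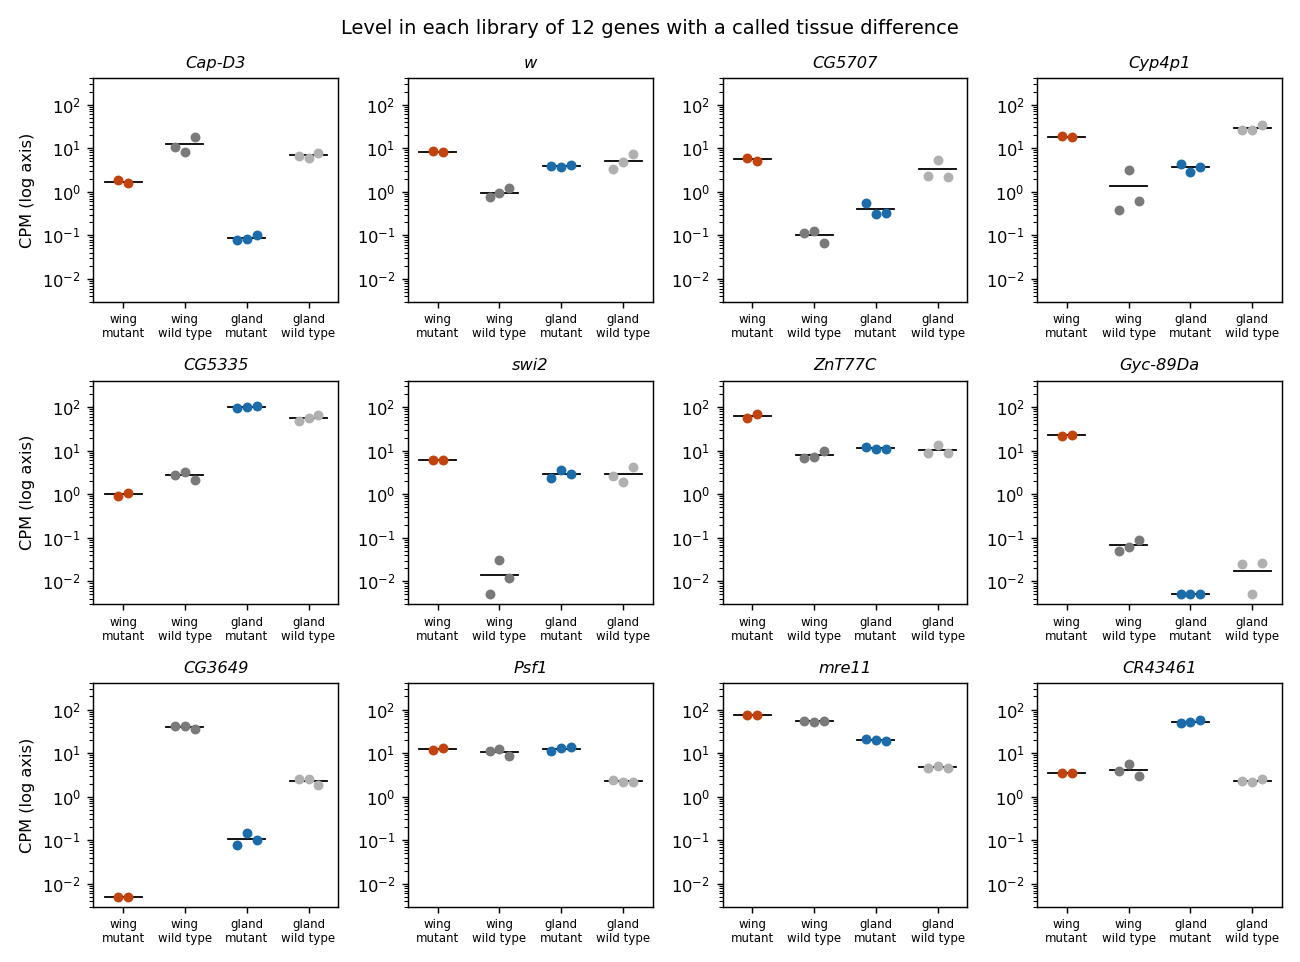
Level of 12 genes with a called interaction in each of the 11 libraries, in CPM on a log axis, with libraries at 0 drawn at the lowest mark; points are libraries and horizontal lines group means. CG5707 and Cyp4p1 are higher in mutant wing discs and lower in mutant glands, CG5335 the reverse, swi2 and ZnT77C separate the genotypes in wing discs alone, and Psf1 and CR43461 in glands alone.

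Among the 10 genes with a positive difference and a wing effect alone, several were nearly silent in wild-type wing discs. The gene swi2 (FBgn0034262, 2R, 17690275 to 17695353) had 6.23 and 6.14 CPM in mutant wing discs, against 0, 0.0309 and 0.012 CPM in wild-type wing discs, which is 0, 3 and 3 counts. Mutant glands had 2.33, 3.63 and 2.98 CPM, against 2.58, 1.92 and 4.27 CPM in wild-type glands. In the mutant the wing level was of the same order as the gland level, which itself did not separate the genotypes. The difference was 8.63 ± 0.86 (adjusted p = 0.0047), and the call of swi2 held in every fit that left out 1 library. CR45146, a non-coding gene that starts 2179 bases beyond swi2 on the other strand, had 2.36 and 2.22 CPM in mutant wing discs, against 0, 0.0103 and 0.00401 CPM in wild-type wing discs. In glands it stayed at or near the level of 3 counts in both genotypes, 0.0256 to 0.0626 CPM in the mutant and 0.0263 to 0.101 CPM in wild type (difference 8.89 ± 1.05, adjusted p = 0.0082), and the fitted size depends on the prior count. CR45146, chosen after its values were seen, lost its call without wing mutant replicates 1 and 2 (adjusted p = 0.0671 and 0.0559).

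The guanylyl cyclase subunit gene Gyc-89Da (FBgn0038435, 3R, 16472601 to 16475477), whose enzymes make cyclic GMP, had the largest called difference. It had 22.1 and 23.3 CPM in mutant wing discs, against 0.0503, 0.0617 and 0.0883 CPM in wild-type wing discs, 339-fold higher by the means. It had no counts in the 3 mutant gland libraries and 1, 0 and 1 counts in the wild-type ones, so the gland effect could not be measured at this depth. The fitted difference of 11.91 ± 1.58 (adjusted p = 0.021) depends on the prior count. Its call ended without wing mutant replicate 1 (adjusted p = 0.0916) or 2 (adjusted p = 0.103) and without wild-type gland replicate 1 (adjusted p = 0.111) or 3 (adjusted p = 0.0731). Another gene of cyclic nucleotide signalling, the phosphodiesterase gene Pde1c, had 1.37 and 1.31 CPM in mutant wing discs, against 0.211, 0.185 and 0.273 CPM in wild-type wing discs. In mutant glands it had 37.0, 52.5 and 48.1 CPM, against 32.4, 33.2 and 33.1 CPM in wild-type glands. It was 5.996-fold higher in mutant wing discs and 1.39-fold higher in mutant glands by the means (difference 2.07 ± 0.26, adjusted p = 0.0095), with 13 annotated genes inside its span on the opposite strand. The call of Pde1c ended without wing mutant replicate 1 (adjusted p = 0.0797) or 2 (adjusted p = 0.0709) and with limma-voom (adjusted p = 0.188).

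A pair of transporter genes were also higher in the mutant in wing discs alone. ZnT77C, named as a zinc transporter, had 57.7 and 69.5 CPM in mutant wing discs, against 6.86, 7.32 and 10.02 CPM in wild-type wing discs, while glands ranged from 10.7 to 12.4 CPM in the mutant and from 8.64 to 13.2 CPM in wild type. CG8083, annotated as the nucleoside transporter CNT2, had 4.42 and 5.27 CPM in mutant wing discs, against 0.563, 0.370 and 0.465 CPM in wild-type wing discs, and 49.3 to 68.0 CPM in mutant glands, against 31.9 to 50.5 CPM in wild-type glands. Both separated the genotypes in wing discs and overlapped in glands, with differences of 2.83 ± 0.31 (adjusted p = 0.0066) for ZnT77C and 2.88 ± 0.33 (adjusted p = 0.0071) for CG8083. Each lost its call without wing mutant replicate 2 (adjusted p = 0.0544 and 0.0559), and CG8083 also with limma-voom (adjusted p = 0.134). ZnT77C lies opposite to ND-39, a respiratory chain subunit, whose difference was 0.10 (adjusted p = 0.900). The remaining positive genes of this kind included Oseg2, an intraflagellar transport gene, with 1.08 and 1.23 CPM in mutant wing discs against 0.0201, 0.0103 and 0.0161 CPM in wild-type wing discs, and Arc2, an Arc-like gene, with 7.38 and 6.62 CPM against 1.94, 2.02 and 1.59 CPM. In glands the mutant libraries of Oseg2 (0.153, 0.250 and 0.298 CPM, against 0.596, 0.303 and 0.711 CPM in wild type) and of Arc2 (4.62, 4.55 and 3.32 CPM, against 4.94, 5.90 and 5.11 CPM in wild type) all lay below the wild-type ones, without a called gland effect. Oseg2 and Arc2 were chosen after their values were seen; their differences were 7.26 ± 0.74 (adjusted p = 0.0047) and 2.27 ± 0.30 (adjusted p = 0.0106). Oseg2 lost its call without wing mutant replicate 2 (adjusted p = 0.052), and Arc2 without wing mutant replicates 1 and 2 (adjusted p = 0.0916 and 0.0781).

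All 9 genes lower in mutant wing discs alone had a higher mean CPM in wild-type glands than in wild-type wing discs. The share of all genes tested with this order was not computed, so nothing is read from it. The adjacent genes CHKov1 and CHKov2, 214 bases apart on 3R, encode kinase-like proteins. CHKov2 had 2.71 and 2.19 CPM in mutant wing discs, against 9.47, 9.77 and 10.6 CPM in wild-type wing discs, and 12.03 to 13.5 CPM in mutant glands, against 11.5 to 15.9 CPM in wild-type glands (difference -1.94 ± 0.24, adjusted p = 0.0084). CHKov1 had 8.64 and 5.16 CPM in mutant wing discs, against 32.8, 21.7 and 40.9 CPM in wild-type wing discs, and 62.4 to 73.8 CPM in mutant glands, against 46.6 to 74.98 CPM in wild-type glands (difference -2.38 ± 0.44, adjusted p = 0.0423). Both were lower in mutant wing discs and overlapped in glands, and as related neighbours they may share reads. The call of CHKov2 ended without wing mutant replicates 1 and 2 (adjusted p = 0.0592 and 0.0788), and that of CHKov1 without wing mutant replicates 1 and 2 (adjusted p = 0.105 and 0.28), wild-type wing replicate 1 (adjusted p = 0.0932), gland mutant replicates 2 and 3 (adjusted p = 0.0815 and 0.0971) and wild-type gland replicates 1 and 2 (adjusted p = 0.0859 and 0.103). Others with this pattern were dpr1, an immunoglobulin-domain gene of neurons (difference -4.54 ± 0.79, adjusted p = 0.0332), Mst36Fa, named as a male-specific transcript (-2.37 ± 0.39, adjusted p = 0.0267), and the P450 gene Cyp6d2 (-2.23 ± 0.39, adjusted p = 0.0346). Mutant wing discs had 0 and 0.0211 CPM of dpr1, below the level of 3 counts, against 0.151, 0.206 and 0.261 CPM in wild type. The fitted size for dpr1 depends on the prior count. Levels of Mst36Fa in wing discs were also low, 0.135 and 0.095 CPM in the mutant against 0.533, 0.370 and 0.453 CPM in wild type. For dpr1 the call ended without wing mutant replicates 1 and 2 (adjusted p = 0.115 and 0.052), wild-type wing replicates 1, 2 and 3 (adjusted p = 0.0514, 0.0512 and 0.0545), gland mutant replicates 2 and 3 (adjusted p = 0.0693 and 0.0851) and wild-type gland replicates 1 and 2 (adjusted p = 0.0594 and 0.0728). That of Mst36Fa ended without wing mutant replicates 1 and 2 (adjusted p = 0.122 and 0.234), wild-type wing replicate 1 (adjusted p = 0.0604), gland mutant replicates 2 and 3 (adjusted p = 0.0673 and 0.0754) and wild-type gland replicates 1 and 2 (adjusted p = 0.0625 and 0.067), and that of Cyp6d2 without wing mutant replicates 1 and 2 (adjusted p = 0.103 and 0.265), wild-type wing replicates 2 and 3 (adjusted p = 0.0539 and 0.0586), gland mutant replicates 2 and 3 (adjusted p = 0.0632 and 0.0862) and wild-type gland replicates 1 and 2 (adjusted p = 0.0866 and 0.0956). With limma-voom CHKov1 (adjusted p = 0.112), dpr1 (adjusted p = 0.101) and Mst36Fa (adjusted p = 0.0633) were not called, and with upper-quartile scaling dpr1 (adjusted p = 0.0538), Mst36Fa (adjusted p = 0.0611) and Cyp6d2 (adjusted p = 0.063) were not.

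The largest class, 57 genes, had a gland effect alone. CR43461 shared the smallest adjusted p of the contrast with CG3649, whose effect was called in both tissues. The non-coding gene CR43461 (FBgn0263415, X, 6732717 to 6735917) had 3.55 and 3.43 CPM in mutant wing discs, against 3.81, 5.55 and 3.06 CPM in wild-type wing discs. In mutant glands it had 48.6, 51.5 and 57.5 CPM, against 2.23, 2.14 and 2.53 CPM in wild-type glands. The genotypes overlapped in wing discs, and the mutant was 22.8-fold higher in glands by the means (difference -4.76 ± 0.33, adjusted p = 6.07e-04), and its call held in every fit without 1 library. CR43461 overlaps CG3168 on the opposite strand, and CG3168 averaged 22.8 CPM in mutant and 17.2 CPM in wild-type wing discs, and 244 CPM in mutant and 88.5 CPM in wild-type glands. Reads of the overlap cannot be set apart in the non-directional gland libraries.

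CG3788 and CG10126 had the same pattern as CR43461. CG3788 (2R, 22932035 to 22934077) had 8.78 and 7.89 CPM in mutant wing discs, against 12.1, 10.3 and 8.60 CPM in wild-type wing discs, and 8.33, 8.51 and 7.57 CPM in mutant glands, against 2.33, 2.40 and 2.63 CPM in wild-type glands (difference -2.04 ± 0.25, adjusted p = 0.0084). CG10126 (3R, 12855544 to 12859246) had 3.45 and 2.80 CPM in mutant wing discs, against 3.38, 5.11 and 2.97 CPM in wild-type wing discs, and 179.8, 176.5 and 174.7 CPM in mutant glands, against 24.6, 27.6 and 35.7 CPM in wild-type glands (difference -2.88 ± 0.35, adjusted p = 0.0084). Both overlapped between genotypes in wing discs and were higher in every mutant gland library. CG3788 (adjusted p = 0.0718 and 0.0803) and CG10126 (adjusted p = 0.0694 and 0.0803) lost their calls without wing mutant replicate 1 or 2.

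Single genes of chromosome replication and repair were in this class, without a shift of the lists they came from. Psf1 (FBgn0035194, 3L, 1246986 to 1247677), a subunit of the GINS complex of the replicative helicase, had 11.5 and 13.3 CPM in mutant wing discs, against 11.3, 12.7 and 8.63 CPM in wild-type wing discs. In mutant glands Psf1 had 11.5, 13.1 and 13.7 CPM, against 2.46, 2.19 and 2.21 CPM in wild-type glands, 5.58-fold higher by the means. The genotypes overlapped in wing discs and were apart in glands (difference -2.29 ± 0.26, adjusted p = 0.0066). Of 34 replication genes tested, Psf1 was the 1 called, against 0.888% of all genes tested, and the list's median difference was -0.05. Another GINS subunit, Psf2, differed by -0.65 (adjusted p = 0.488). The nuclease gene mre11 (FBgn0020270, 2L, 11282090 to 11284335), which processes DNA breaks, had 76.9 and 76.5 CPM in mutant wing discs, against 53.8, 52.7 and 53.9 CPM in wild-type wing discs. In mutant glands it had 20.9, 19.5 and 18.9 CPM, against 4.62, 5.20 and 4.66 CPM in wild-type glands. The mutant lay above wild type without overlap in both tissues, 1.43-fold in wing discs, where the effect of 0.52 ± 0.12 was not called (adjusted p = 0.0967), and 4.10-fold in glands. The difference of mre11 was -1.52 ± 0.17 (adjusted p = 0.0066). It was the 1 called member of 32 DNA damage genes, against 0.888% of all genes tested, and their median was -0.03. The kinase gene l(1)G0148, annotated as Cdc7, which fires replication origins, was outside the lists and had 13.5 and 11.8 CPM in mutant wing discs, against 13.4, 10.1 and 17.9 CPM in wild-type wing discs, and 42.4, 67.2 and 58.9 CPM in mutant glands, against 12.9, 10.01 and 12.3 CPM in wild-type glands (difference -2.39 ± 0.37, adjusted p = 0.0209); it was chosen after its values were seen and lost its call without wing mutant replicates 1 and 2 (adjusted p = 0.142 and 0.187), gland mutant replicates 2 and 3 (adjusted p = 0.0565 and 0.057) and wild-type gland replicates 1 and 2 (adjusted p = 0.0508 and 0.0579). Both Psf1 (adjusted p = 0.0718 and 0.0559) and mre11 (adjusted p = 0.0718 and 0.0693) lost their calls without wing mutant replicate 1 or 2.

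Chaperone genes, with cytochrome P450 genes, were the lists with the most called members. Heat shock proteins and their co-chaperones refold damaged proteins and are induced together by heat and other stress. Of 20 tested members 0 had a called positive and 4 a called negative difference, against 0.57% negative calls over all genes tested, and the median difference was -1.45. The gland effect was called higher in 13 of the 20, against 4.28% of all genes tested, and the wing effect in 0, against 0.715%, with median effects of 0.21 in wing discs and 1.48 in glands. The difference was positive in 2 of the 20, against 4097 of the 10355 genes tested. The co-chaperone gene stv had 17.7 and 14.4 CPM in mutant wing discs, against 13.8, 11.2 and 19.2 CPM in wild-type wing discs, and 402, 387 and 295 CPM in mutant glands, against 39.7, 49.3 and 56.6 CPM in wild-type glands. The small heat shock gene Hsp26 had 322 and 400 CPM in mutant wing discs, against 153, 281 and 148 CPM in wild-type wing discs, and 1817, 1259 and 792 CPM in mutant glands, against 62.0, 35.5 and 47.6 CPM in wild-type glands. The Hsp40 gene DnaJ-1 had 73.0 and 82.8 CPM in mutant wing discs, against 54.3, 63.5 and 63.6 CPM in wild-type wing discs, and 685, 606 and 593 CPM in mutant glands, against 85.1, 155 and 134 CPM in wild-type glands. All 3 were higher in every mutant gland library, while mutant wing discs were above wild type by at most 1.86-fold in the means.

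Their differences were -2.78 ± 0.37 for stv (adjusted p = 0.0105), -3.84 ± 0.58 for Hsp26 (adjusted p = 0.0192) and -1.97 ± 0.32 for DnaJ-1 (adjusted p = 0.0267). Hsp68, an inducible Hsp70-type chaperone, had 6.45 and 4.53 CPM in mutant wing discs, against 2.36, 6.503 and 2.42 CPM in wild-type wing discs, and 1011, 454 and 308 CPM in mutant glands, against 10.6, 2.72 and 3.08 CPM in wild-type glands (difference -6.21 ± 1.10, adjusted p = 0.0368). The mutant glands lay far above and the wing genotypes overlapped. Hsp70Ab (difference -2.83, adjusted p = 0.410) and Hsp70Bc (-2.09, adjusted p = 0.487) were called higher in glands but had wing effects of 3.85 and 3.98 that did not pass the test (adjusted p = 0.0744 and 0.0567); Hsp70 copies are near identical and may share reads. Hsp26, stv, DnaJ-1 and Hsp68 lost their calls without wing mutant replicate 1 (adjusted p = 0.161, 0.081, 0.199 and 0.232) and replicate 2 (adjusted p = 0.127, 0.107, 0.172 and 0.301). Without gland mutant replicate 2, Hsp26 (adjusted p = 0.0531), DnaJ-1 (adjusted p = 0.0693) and Hsp68 (adjusted p = 0.0726) lost theirs too. The same held without gland mutant replicate 3 for DnaJ-1 (adjusted p = 0.0637) and Hsp68 (adjusted p = 0.0549), without wild-type wing replicate 1 for DnaJ-1 (adjusted p = 0.0529) and Hsp68 (adjusted p = 0.0566), and without wild-type wing replicate 2 for DnaJ-1 (adjusted p = 0.0539) and Hsp68 (adjusted p = 0.0525). Hsp68 was lost as well without wild-type wing replicate 3 (adjusted p = 0.0503) and wild-type gland replicate 2 (adjusted p = 0.0789). Upper-quartile scaling ended the calls of Hsp26 (adjusted p = 0.0503), Hsp68 (adjusted p = 0.0641) and DnaJ-1 (adjusted p = 0.053).

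**Figure D3:**
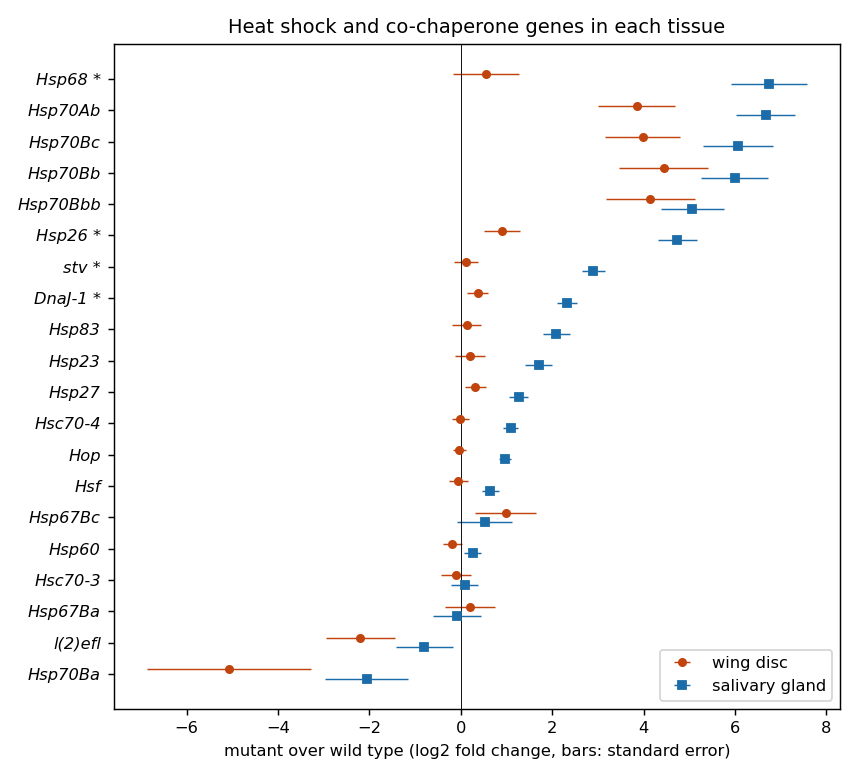
Mutant over wild-type log2 fold change of 20 heat shock and co-chaperone genes in wing discs (circles) and salivary glands (squares), with standard errors as bars and an asterisk at the 4 called interactions. The gland effect exceeds the wing effect in 18 of the 20 genes; the Hsp70 copies have wide errors and lie right of 0 in both tissues except Hsp70Ba (-5.08 in wing discs and -2.06 in glands, neither called).

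Other genes higher in mutant glands alone carried large differences. CG9826, which lies next to CG3649, had 0 to 3 counts in every wing library, and 12.3, 23.1 and 12.6 CPM in mutant glands, against 0.546, 0.479 and 0.948 CPM in wild-type glands. CG33267 had 0.325 to 0.573 CPM over all wing libraries, and 32.2, 148 and 27.1 CPM in mutant glands, against 0.397, 0.277 and 0.474 CPM in wild-type glands. All mutant gland libraries of both genes lay above all wild-type ones. CG11697, annotated as Reepl1, had 6.72, 6.74 and 7.76 CPM in mutant glands, against 0.0993, 0 and 0.0263 CPM in wild-type glands. CG32335, annotated as meep, had 6.26, 7.24 and 8.98 CPM in mutant glands, against 0.0248, 0.0504 and 0.079 CPM in wild-type glands. All 4 were far apart in glands and low in both wing genotypes. Differences were -8.34 ± 1.14 for CG9826 (adjusted p = 0.0184), -7.22 ± 1.07 for CG33267 (adjusted p = 0.0184), -6.48 ± 1.003 for CG11697 (adjusted p = 0.0209) and -6.60 ± 0.98 for CG32335 (adjusted p = 0.0184), and with wing levels this low the size of each rests on the prior count. In fits without 1 library they kept their calls in 8, 7, 7 and 6 of 11, in that order, and each lost its call without wing mutant replicate 1 (adjusted p = 0.0916, 0.152, 0.148 and 0.0687) and replicate 2 (adjusted p = 0.0899, 0.172, 0.188 and 0.103). CG9826 and CG33267 were lost without wild-type gland replicate 1 (adjusted p = 0.0508 for both), and CG33267 without wild-type gland replicate 2 (adjusted p = 0.0513). CG11697 and CG32335 were lost without gland mutant replicate 2 (adjusted p = 0.0673 and 0.0534) or 3 (adjusted p = 0.0637 and 0.0526), and CG32335 without wild-type wing replicate 3 (adjusted p = 0.0668). With limma-voom CG9826 (adjusted p = 0.152), CG33267 (adjusted p = 0.343) and CG32335 (adjusted p = 0.125) were not called.

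At moderate levels the tetraspanin gene Tsp42Ei, of a family of membrane-spanning scaffold proteins, had 2.31 and 1.91 CPM in mutant wing discs, against 3.76, 3.61 and 3.38 CPM in wild-type wing discs, and 10.2, 7.72 and 7.22 CPM in mutant glands, against 1.34, 1.54 and 1.74 CPM in wild-type glands. Its genotypes were apart in both tissues, in opposite directions, although the wing effect of -0.76 ± 0.24 was not called (difference -3.21 ± 0.33, adjusted p = 0.0047). Without wing mutant replicate 2 it reached an adjusted p of 0.0559. It was the 1 called member of 27 tetraspanin genes, against 0.888% of all genes tested, and their median was -0.30. Outside the lists and chosen after its values were seen was the asparagine synthetase gene AsnS, with 17.8 and 16.5 CPM in mutant wing discs, against 14.3, 19.4 and 19.4 CPM in wild-type wing discs, and 480.3, 426 and 415 CPM in mutant glands, against 109, 70.8 and 102 CPM in wild-type glands (difference -2.27 ± 0.30, adjusted p = 0.0105). AsnS lost its call without wing mutant replicates 1 and 2 (adjusted p = 0.0916 and 0.112).

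In 17 genes the gland effect alone was called with a positive difference, and in these the mutant gland level was lower. CG42390 (3R, 22120061 to 22133367) had 0.538 and 0.570 CPM in mutant wing discs, against 0.774, 0.885 and 1.38 CPM in wild-type wing discs, and 1.05, 0.709 and 0.521 CPM in mutant glands, against 20.2, 30.0 and 33.0 CPM in wild-type glands. CG3868 (3L, 14400769 to 14402725) had 0.423 and 0.338 CPM in mutant wing discs, against 1.89, 3.22 and 0.674 CPM in wild-type wing discs, and 0.894, 0.459 and 0.397 CPM in mutant glands, against 87.0, 164 and 66.7 CPM in wild-type glands. Both had their highest levels in wild-type glands, and the mutant was lower without overlap in both tissues. The differences were 4.31 ± 0.47 (adjusted p = 0.0066) for CG42390 and 5.18 ± 0.89 (adjusted p = 0.031) for CG3868. CG5039 and its neighbour CG4730, which start 1 base apart on opposite strands of 3R, were both lower in mutant glands, while in wing discs CG5039 was lower and CG4730 higher in every mutant library. CG5039 had 1.93 and 2.09 CPM in mutant wing discs, against 5.62, 5.95 and 3.50 CPM in wild-type wing discs, and 0.511, 0.355 and 0.595 CPM in mutant glands, against 14.7, 16.6 and 18.4 CPM in wild-type glands (difference 3.77 ± 0.38, adjusted p = 0.0047). CG4730 had 10.4 and 10.4 CPM in mutant wing discs, against 8.60, 7.72 and 8.66 CPM in wild-type wing discs, and 0.945, 0.626 and 0.571 CPM in mutant glands, against 2.88, 3.10 and 2.87 CPM in wild-type glands (difference 2.37 ± 0.30, adjusted p = 0.0095). CG42390 lost its call without wing mutant replicate 2 (adjusted p = 0.052), CG4730, chosen after its values were seen, lost its call without wing mutant replicates 1 and 2 (adjusted p = 0.0797 and 0.0781), and CG5039 kept its call in all 11 fits. CG3868 kept its call in 4 of the 11, losing it without wing mutant replicate 1 (adjusted p = 0.167) or 2 (adjusted p = 0.127), gland mutant replicate 2 (adjusted p = 0.0927) or 3 (adjusted p = 0.0864), wild-type wing replicate 1 (adjusted p = 0.0834), and wild-type gland replicate 1 (adjusted p = 0.0594) or 2 (adjusted p = 0.0672), and also with upper-quartile scaling (adjusted p = 0.0522).

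The non-coding gene CR43242 and CG3603 belong to the same class. CR43242 had 10.99 and 9.66 CPM in mutant wing discs, against 13.1, 15.6 and 12.3 CPM in wild-type wing discs, and 1.84, 1.40 and 1.96 CPM in mutant glands, against 10.1, 10.95 and 11.7 CPM in wild-type glands (difference 2.25 ± 0.25, adjusted p = 0.0066). CG3603 had 30.2 and 28.9 CPM in mutant wing discs, against 12.7, 16.9 and 11.5 CPM in wild-type wing discs, and 36.7, 25.5 and 27.8 CPM in mutant glands, against 84.8, 104 and 147 CPM in wild-type glands (difference 3.01 ± 0.36, adjusted p = 0.0084). The genotypes of CG3603 were apart in both tissues, in opposite directions, although its wing effect of 1.11 ± 0.27 was not called (adjusted p = 0.101). The ecdysone-induced gene ImpE3 had 138 and 175 CPM in mutant wing discs, against 82.8, 117 and 102 CPM in wild-type wing discs, and 4.14, 3.38 and 2.58 CPM in mutant glands, against 14.0, 7.67 and 11.9 CPM in wild-type glands (difference 2.37 ± 0.39, adjusted p = 0.0267). ImpE3 was the 1 called member of 31 ecdysone response genes, against 0.888% of all genes tested, with a list median of -0.40. The calls of CR43242 (adjusted p = 0.0592 and 0.052), CG3603 (adjusted p = 0.0671 and 0.0559) and ImpE3 (adjusted p = 0.103 and 0.179) ended without wing mutant replicate 1 or 2. ImpE3 was lost also without gland mutant replicate 2 (adjusted p = 0.0754) or 3 (adjusted p = 0.0657), wild-type wing replicate 1 (adjusted p = 0.0703) and wild-type gland replicate 1 (adjusted p = 0.0584), and with limma-voom (adjusted p = 0.071).

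A change in the same direction but of different size was called in 10 genes. CG3649 (FBgn0034785, 2R, 22845977 to 22847911) shared the smallest adjusted p. It had no counts in either mutant wing library, against 42.2, 41.7 and 35.9 CPM in wild-type wing discs, at least 1319-fold lower when the mutant libraries are set at the limit of 3 counts each. Mutant glands had 0.0767, 0.146 and 0.0992 CPM, which is 3 to 7 counts, against 2.61, 2.55 and 1.87 CPM in wild-type glands. The mutant level was near the counting limit in both tissues. The interaction was called at an adjusted p of 6.07e-04 and kept in all 11 fits without 1 library; its fitted size of -10.25 ± 0.62 depends on the prior count. CG3649 overlaps CG13531 on the opposite strand, which averaged 12.5 CPM in mutant and 18.1 CPM in wild-type wing discs, and 186 CPM in mutant and 170 CPM in wild-type glands.

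Further genes with lower mutant levels in both tissues were Oseg5 and pinta. Oseg5, an intraflagellar transport gene, had 0.0192 and 0.0528 CPM in mutant wing discs, against 8.16, 6.22 and 9.04 CPM in wild-type wing discs, and 0.0767, 0.125 and 0.174 CPM in mutant glands, against 1.22, 1.01 and 0.711 CPM in wild-type glands (difference -4.76 ± 0.67, adjusted p = 0.0156). The retinoid-binding gene pinta, known from the eye, had 0.644 and 0.591 CPM in mutant wing discs, against 18.02, 18.5 and 14.8 CPM in wild-type wing discs, and 5.60, 7.86 and 6.13 CPM in mutant glands, against 22.5, 38.2 and 18.6 CPM in wild-type glands. By the means pinta was 27.7-fold lower in mutant wing discs and 4.05-fold lower in mutant glands (difference -2.77 ± 0.41, adjusted p = 0.0184). Among genes higher in both, CG7054 had 21.9 and 21.2 CPM in mutant wing discs, against 0.503, 0.607 and 0.329 CPM in wild-type wing discs, and 9.48, 10.1 and 8.38 CPM in mutant glands, against 1.46, 3.03 and 1.24 CPM in wild-type glands (difference 3.21 ± 0.50, adjusted p = 0.0229). The pseudogene CR44383 had 12.9 and 13.8 CPM in mutant wing discs, against 0.0201, 0.0206 and 0.012 CPM in wild-type wing discs, and 10.96, 11.1 and 11.3 CPM in mutant glands, against 0.149, 0.151 and 0.0527 CPM in wild-type glands (difference 3.01 ± 0.49, adjusted p = 0.0247). Mutant levels of CR44383 were close to each other in the 2 tissues. Its wild-type levels were at or below the level of 3 counts in wing discs and near that level in glands. The size of its difference therefore rests on few wild-type counts. CG10175 had 1.87 and 1.85 CPM in mutant wing discs, against 0.945, 0.792 and 1.16 CPM in wild-type wing discs, and 21.3, 24.7 and 25.7 CPM in mutant glands, against 4.10, 4.11 and 4.19 CPM in wild-type glands (difference -1.59 ± 0.25, adjusted p = 0.0209). Calls ended for Oseg5 without wing mutant replicates 1 and 2 (adjusted p = 0.0966 and 0.0589), for pinta without wing mutant replicates 1 and 2 (adjusted p = 0.122 and 0.145), gland mutant replicate 2 (adjusted p = 0.0507) and wild-type gland replicate 1 (adjusted p = 0.0508) and for CG7054 without wing mutant replicates 1 and 2 (adjusted p = 0.122 and 0.122), wild-type wing replicate 1 (adjusted p = 0.0566) and gland mutant replicates 2 and 3 (adjusted p = 0.0684 and 0.0657). Those of CR44383 ended without wing mutant replicates 1 and 2 (adjusted p = 0.122 and 0.145), wild-type wing replicates 1 and 3 (adjusted p = 0.0529 and 0.056), gland mutant replicates 2 and 3 (adjusted p = 0.0693 and 0.0657) and wild-type gland replicates 1 and 2 (adjusted p = 0.0662 and 0.074), and those of CG10175 without wing mutant replicates 1 and 2 (adjusted p = 0.161 and 0.173), gland mutant replicates 2 and 3 (adjusted p = 0.0693 and 0.0676) and wild-type gland replicates 1 and 2 (adjusted p = 0.0509 and 0.0564). With limma-voom CR44383 (adjusted p = 0.224) and CG10175 (adjusted p = 0.0533) were not called.

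The tissue differences of immune peptide genes spread widely on both sides of 0, while their median effects were above 0 in both tissues. Of 24 tested antimicrobial and immune-induced peptide genes, 1 had a called positive and 0 a called negative difference, against 0.319% and 0.57% of all genes tested. The list's differences had a median of 0.10 and a range from -3.93 to 9.86. Median effects were 2.61 in wing discs and 2.46 in glands, against -0.11 and 0.00 over all genes tested. The wing effect was called higher in 2 members and lower in 0, against 0.715% and 0.618% of all genes tested, and the gland effect higher in 6 and lower in 4, against 4.28% and 4.45%. Their summed level was 9.49 and 30.5 CPM in mutant and 1.18 to 12.3 CPM in wild-type wing discs, and 666 to 748 CPM in mutant and 155 to 206 CPM in wild-type glands, overlapping in wing discs and apart in glands. The cecropin gene CecC had 0.663 and 0.285 CPM in mutant wing discs, against 0.01, 0.0515 and 0 CPM in wild-type wing discs, and 27.0, 40.96 and 24.1 CPM in mutant glands, against 55.0, 51.0 and 79.3 CPM in wild-type glands. Wild-type wing discs were near the counting limit; the mutant was higher in wing discs and lower in glands, without overlap in either (difference 5.87 ± 0.98, adjusted p = 0.028). CecC kept its call in 4 of the 11 fits and lost it without wing mutant replicate 1 (adjusted p = 0.189) or 2 (adjusted p = 0.0836), gland mutant replicate 2 (adjusted p = 0.0673) or 3 (adjusted p = 0.0775), wild-type wing replicate 1 (adjusted p = 0.0849) and wild-type gland replicate 1 (adjusted p = 0.0584) or 2 (adjusted p = 0.0564), and also with limma-voom (adjusted p = 0.358). The immune-induced peptide genes IM4 (difference 9.86, adjusted p = 0.0531) and IM14 (8.71, adjusted p = 0.0632) and the attacin gene AttD (8.14, adjusted p = 0.0613) had larger differences that did not pass the test. Of 31 genes of Toll and Imd signalling, the pathways that induce such peptides, 0 were called and 5 reached an unadjusted p of at most 0.05.

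Of 66 tested P450 genes 3 had a called positive and 1 a called negative difference, against 0.319% and 0.57% of all genes tested. The list median was -0.52. Beside Cyp4p1, Cyp4p2 and Cyp6d2, Cyp6a23 was called, with 1.08 and 0.781 CPM in mutant wing discs, against 0.261, 0.432 and 0.265 CPM in wild-type wing discs, and 0.894, 0.730 and 0.422 CPM in mutant glands, against 3.97, 10.8 and 3.40 CPM in wild-type glands. Like Cyp4p1 it was higher in every mutant wing library and lower in every mutant gland library, but its wing effect of 1.54 ± 0.55 was not called (difference 4.69 ± 0.76, adjusted p = 0.0251). Cyp6a23 lost its call without wing mutant replicates 1 and 2 (adjusted p = 0.14 and 0.103), wild-type wing replicates 1 and 3 (adjusted p = 0.0721 and 0.0558) and gland mutant replicates 2 and 3 (adjusted p = 0.0726 and 0.0657) and with limma-voom (adjusted p = 0.108). The 32 glutathione S-transferase genes, enzymes of detoxification, had 0 called differences and a median of -0.47. Their gland effect was called higher in 8 and lower in 3, against 4.28% and 4.45% of all genes tested.

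The remaining lists had no called member, with medians on either side of the -0.13 of all genes tested. The 48 wing disc territory regulators had a median difference of 0.58 and 34 positive members, and the 39 genes of mitosis and spindle a median of 0.64 and 30 positive members, while 4097 of the 10355 genes tested were positive. In both lists the median wing effect was near 0 (-0.12 and -0.14) and the median gland effect was lower (-0.70 and -0.78), at summed gland levels far below those of wing discs. The summed level of the mitosis list was 2723 to 2792 CPM in mutant and 2498 to 3579 CPM in wild-type wing discs, and 439 to 479 CPM in mutant and 496 to 518 CPM in wild-type glands. Its genotypes overlapped in wing discs and were apart in glands. The territory list summed to 2678 and 2861 CPM in mutant and 1875 to 5014 CPM in wild-type wing discs, and to 691.6 to 868.2 CPM in mutant and 772 to 847.4 CPM in wild-type glands, overlapping in both tissues. Among the 13 transcripts of the mitochondrial genome the wing effect was called higher in 5, against 0.715% of all genes tested. The gland effect was called higher in 8, against 4.28%. Median effects were 1.52 in wing discs and 2.37 in glands, and the median difference was -0.26 with 0 called. The transcripts summed to 17663 and 16873 CPM in mutant wing discs, against 10839, 12133 and 3533 CPM in wild-type wing replicates 1 to 3. The low sum of replicate 3, the library numbered 59, adds to the wing effect. In glands the sums were 25367 to 26837 CPM in the mutant and 15913 to 18286 CPM in wild type. The oxidase subunit transcript mt:CoII had effects of 9.44 in wing discs and 9.84 in glands (difference -0.39, adjusted p = 0.841). Nuclear respiratory chain genes (41 tested) and proteasome subunits (30 tested) had median differences of -0.03 and 0.08.

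**Figure D4:**
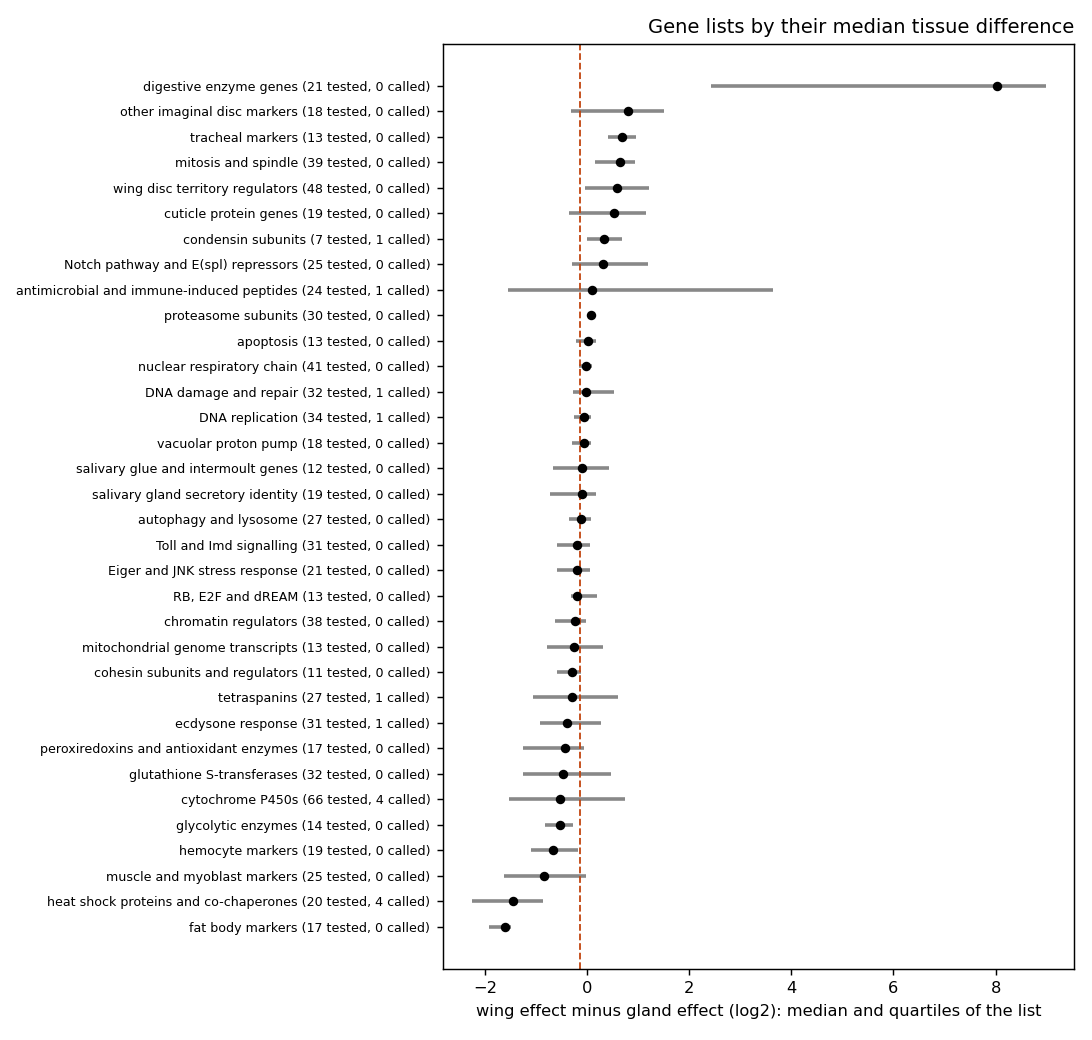
Median (point) and quartiles (bar) of the wing effect minus the gland effect, on a log2 scale, for each of 34 gene lists, with the median of all genes tested as a dashed line. Digestive enzyme genes lie far to the right without a call, and heat shock genes, with 4 calls, lie among the lowest.

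Markers of tissues that may be carried along in dissection also differed. The 21 digestive enzyme genes had a median difference of 8.03 and 0 called members, and 13 reached an unadjusted p of at most 0.05. Their summed level was 8.88 and 11.7 CPM in mutant and 20.3 to 44.1 CPM in wild-type wing discs, and 79.0 to 157.5 CPM in mutant and 118 to 22953 CPM in wild-type glands, where replicates 1 and 2 were high. The 17 fat body markers had a median of -1.62 and 0 called, with 1381 to 3234 CPM in mutant and 1433 to 11145 CPM in wild-type wing discs, and 146633 to 230327 CPM in mutant and 103736 to 155796 CPM in wild-type glands. Of the digestive genes, 10 had a gland effect called lower, against 4.45% of all genes tested. Hemocyte markers (19 tested, median difference -0.67) and muscle markers (25 tested, median -0.84) had 0 called interactions, but the wing effect was called lower in 3 members of each, against 0.618% of all genes tested, with median wing effects of -1.05 and -1.22. The hemocyte gene Hml stood at 1.32 and 1.48 CPM in mutant and 5.23 to 17.1 CPM in wild-type wing discs, and the muscle myosin gene Mhc at 0.413 and 0.465 CPM in mutant and 3.59 to 5.19 CPM in wild-type wing discs, with no overlap. In glands Hml was lower in the mutant too, at 3.34 to 5.09 against 10.4 to 12.9 CPM. Mhc overlapped there, at 1.51 to 5.46 CPM in mutant and 3.87 to 5.45 CPM in wild-type glands. The hemocyte gene NimC2 was higher in mutant glands, at 595 to 860 against 444 to 573 CPM. Summed over the lists, hemocyte markers were at 469.6 and 483.8 CPM in mutant and 462 to 1082 CPM in wild-type wing discs, and muscle markers at 547.6 and 573.8 CPM in mutant and 583.8 to 991.9 CPM in wild-type wing discs. Tracheal markers (13 tested, median 0.68), cuticle genes (19 tested, median 0.52) and markers of other discs (18 tested, median 0.81) likewise had 0 called. Their part in the called interactions was not tested. With wild-type glands reduced to replicate 3, the library without the high digestive sum, 14 genes were called, 13 of them among the 92, and all 92 kept their sign; that group then had 1 library.

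Called genes lay on all major chromosome arms, 16 on 2L, 23 on 2R, 18 on 3L, 25 on 3R and 10 on X, which is between 0.594% and 1.08% of the genes tested on each. Of the 91 genes tested on chromosome 4 and the 13 of the mitochondrial genome, 0 were called. Some called genes were neighbours: 16 of the 92 formed 8 pairs within 10 kb. The share of such pairs among all genes tested was not computed, so nothing is read from their number or shared signs. In 7 pairs both genes differed in the same direction, namely Mst36Fb with Mst36Fa, CG31673 with Oseg5, Cyp4p2 with Cyp4p1, swi2 with CR45146, CG9826 with CG3649, CHKov1 with CHKov2, and CG4730 with CG5039. The exception was ZnT77C with CG32425. A shared sign did not mean a shared pattern. In glands CG9826 was higher and CG3649 lower in the mutant. Cyp4p1 and Cyp4p2 were both higher in mutant wing discs, and in mutant glands Cyp4p1 was lower and Cyp4p2 higher.

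A gene on the opposite strand overlapped 35 of the 92 called genes (38.04%) and 4325 of the 10176 genes tested with an annotated strand (42.5%). Besides the overlaps given with their genes, swi2 overlaps HPS4 (difference 0.54), CR45146 rdgBbeta (1.32), CG3788 ReepA, held as Reep1 (0.03), CG5039 CG4743 (0.35), Oseg5 CG31674 (-1.41), Cyp6d2 nsr (-3.38), CG32335 mwh (3.72), Hsp68 CG6000 (-0.93) and Gyc-89Da asRNA:CR46029 (0.66), with adjusted p between 0.224 and 0.977. The gene mwh averaged 1.72 CPM in mutant and 1.08 CPM in wild-type wing discs, and 0.838 CPM in mutant and 6.95 CPM in wild-type glands, opposite in direction to CG32335 in glands. The partners of mre11 (Osi21), Tsp42Ei (CG33914), dpr1 (CG13442) and CG4730 (Lgr3) were not among the genes tested. When only the 5845 genes without such an overlap were tested, 65 were called, among them all 57 of the 92 that entered. In the authors' deposited tables, which compare the genotypes within each tissue, 465 genes passed a false discovery rate of 0.05 and a 2-fold change in both tissues, 72 of them in opposite directions, and 12 of those 72 were called here. Of the 2075 genes past both thresholds in 1 deposited table only, 65 were called here, and 2 of the 92 were past them in neither.

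The calls depended on single libraries, and most on the pair of mutant wing libraries. Without wing mutant replicate 1 there were 11 calls and without wing mutant replicate 2 there were 5, all of them among the 92. In the 9 fits that kept both mutant wing libraries the number ranged from 46 to 277, with the highest count without gland mutant replicate 1 (277), wild-type gland replicate 3 (174) and wild-type wing replicate 3 (129). Called in every one of those 9 fits were 36 of the 92 genes, and 5 (CG5707, CG5039, swi2, CR43461 and CG3649) were called in all 11. None of the 92 differences changed sign in any of the 11. The split between directions depended on scaling: upper-quartile scaling gave 42 positive and 29 negative calls, where trimmed means gave 33 and 59, and it moved the median difference of all genes to 0.08. Of the 92 calls, 68 were also made with limma-voom and 60 with upper-quartile scaling.

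**Figure D5:**
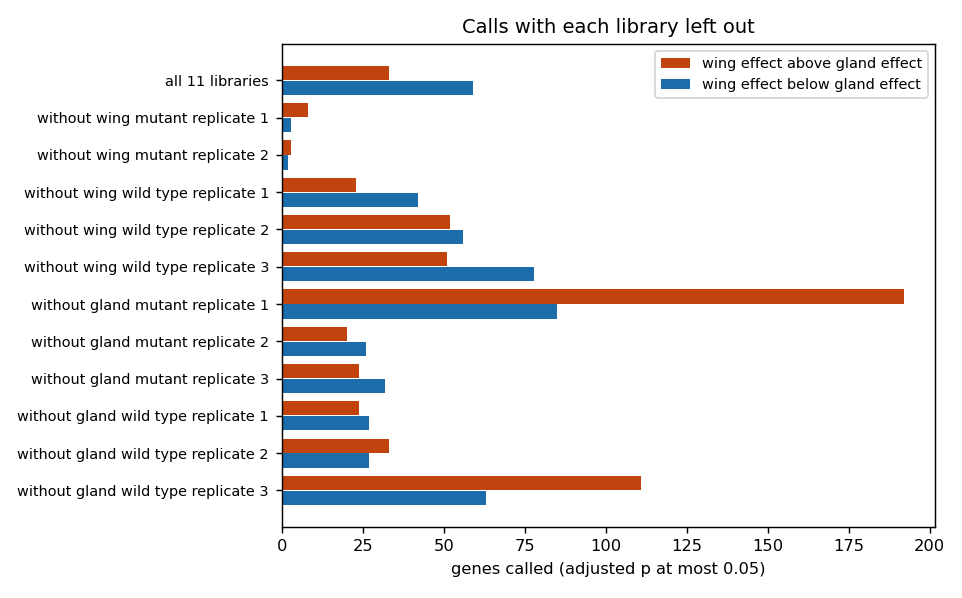
Number of genes called in the interaction with all 11 libraries and with each library left out in turn (horizontal axis, adjusted p at most 0.05), with wing effect above and below the gland effect as separate bars. Leaving out either mutant wing library leaves 5 to 11 calls, and leaving out gland mutant replicate 1 gives 277.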

How the data were processed

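RNA-seq counts per gene came from 11 libraries of 50 bp paired-end reads in 4 groups. The authors deposited raw counts for 16034 entries, with start, end and symbol, and tables of their own comparisons within each tissue that hold log2 fold changes, p-values and a likelihood-ratio score, per the file headers. Per the submitters' processing notes, the tools were HTSeq 0.6.1, Picard 1.119, TopHat2 2.0.8b, BWA, Trim Galore 0.3.3 and FastQC 0.11.3, with genome build BDGP6. No source used here gives the aligner behind the counts or the use of strand in counting. The 5013 entries without a symbol, 0.00629 to 0.0278% of the counts, were left out, and 4 septin symbols written as dates were restored. Of 10839 genes found in the annotation, 10748 had the same start and end.

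Genes were filtered with filterByExpr (minimum count 10, minimum total 15) and scaled by trimmed means of M-values over all 11 libraries. One model with a mean per group was fitted with edgeR 4.0.16 in R 4.3.3 (robust quasi-likelihood test), and p-values were adjusted by Benjamini-Hochberg over all genes tested, with a threshold of 0.05. The contrast was wing effect minus gland effect, and both effects came from the same fit. Errors after ± are standard errors of log2 values, taken as the absolute log2 value over the square root of the test's F statistic. Near 0 counts they depend on the prior count, as the log2 values do. Alternatives used limma 3.58.1 and DESeq2 1.42.0, other scalings and filters, and each library left out in turn. In data simulated on 10263 genes the model recovered 4% of interactions of size 1 on the log2 scale and 64% of size 2. It recovered 72% of size 3 and 78% of size 4, with 50 genes per size. Of the 115 calls made there, 6 were false. Every simulated interaction was a change in mutant wing discs alone, in genes with a mean of at least 50 counts over the libraries. The recovery rates hold for that setting only. Recovery of gland effects alone, or of genes near 0 counts in a group, was not tested. Library totals ran from 52483185 to 157639957 counts, and no replicate pair held identical values.

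Named genes were Cap-D3 and w; then, among called genes with a mean of at least 5 CPM in 1 group, the 8 per direction with the smallest adjusted p, the 6 per direction with the largest difference and the 4 per direction of each pattern; and up to 4 called members per list, or its 2 members of highest CPM where none was called. The uncalled members are covered by their lists' counts. The contrast, the members and the gene lists were chosen with earlier results of these data known, and the lists were also edited with the files at hand. Of the called genes that the rule names, 1 is not reported here.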

Additional observations from a re-analysis of the deposited data

Results flagged for a closer look

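The change from wild type to mutant differed between wing discs and salivary glands, by edgeR's quasi-likelihood test of the difference itself, for 92 genes. Mutant and wild type were different stocks, so the mutation and stock background cannot be told apart. Among these, 3 had effects called in opposite directions. The log2 difference, wing effect minus gland effect, was 8.82 for CG5707 (adjusted p = 0.0015) and 6.77 for Cyp4p1 (adjusted p = 0.0184), both higher in mutant wing discs and lower in mutant glands. It was -2.27 for CG5335 (adjusted p = 0.0095), lower in mutant wing discs and higher in mutant glands. Wing libraries were directional and gland libraries were not, so tissue and library kind cannot be told apart in any of these.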

How the results depend on the processing

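The 92 called differences kept their sign in every setting in which they were tested. With all libraries, calls were 33 above and 59 below, by pattern 3 opposite, 10 of the same sign, 19 in wing discs alone and 57 in glands alone, and 38.04% overlapped a gene on the opposite strand. Tested against a 2-fold difference, calls were 16 above and 10 below, with 4 of the same sign, 8 in wing discs alone, 12 in glands alone and an overlap of 53.8%. Upper-quartile scaling gave 29 below and 1 opposite. DESeq2 gave 317 above and 282 below, with 20 opposite, 26 of the same sign, 80 in wing discs alone and 427 in glands alone. limma-voom gave 7 opposite and 36 in wing discs alone, and the non-legacy edgeR fit 51 above, 8 opposite and 29 in wing discs alone. Among genes with no opposite-strand overlap there were 1 opposite, 4 of the same sign and 10 in wing discs alone. With wild-type glands reduced to replicate 3, there were 9 above, 5 below, 0 opposite, 2 of the same sign, 6 in wing discs alone and 6 in glands alone, and an overlap of 50.0%. The last 2 settings were chosen after seeing the data, as was the inclusion of entries without a symbol, which gave 92 calls. Leaving out 1 library gave 3 to 192 calls above and 2 to 85 below, 1 to 6 opposite, 1 to 13 of the same sign, 1 to 27 in wing discs alone, 2 to 228 in glands alone and an overlap of 29.9% to 80.0%. Apart from fewer samples or genes by construction, the cause of these shifts was not tested.

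Of the single named genes, the difference reversed for uncalled list members only. For these a reversal was counted where the value moved by more than 1 standard error. The values without 1 library ran from -0.56 to 0.996 for Sgs3, -0.43 to 1.58 for Sgs5, -1.99 to 0.31 for Fbp1, -2.51 to 0.0707 for Lsp1gamma, -1.36 to 0.37 for NimC2, -0.41 to 0.33 for Cpr49Ac and -0.53 to 0.026 for Sod, each positive without wild-type wing replicate 2. They ran from -0.46 to 0.30 for Nipped-B, -0.47 to 0.24 for E2f1, -0.81 to 0.30 for msps and -1.01 to 0.41 for scrib, each positive without wild-type wing replicate 3. Upper-quartile scaling gave 0.0226 for Caf1, and wild-type glands reduced to replicate 3 gave -1.18 for Jon65Aiv, -0.53 for Jon65Aiii and -0.41 for al. Of the other settings of named genes, 2007 kept their side of the threshold, 226 lost the call and 14 gained it. The 2007 may include changes of sign within 1 standard error in genes not called. The median difference of all genes was -0.13, and it was -0.02 with trimmed means within each tissue, -0.03 with relative log expression and 0.08 with upper-quartile scaling. No paired analysis was possible because the labels give no replicate numbers shared between groups. The 2 mutant wing libraries limit the contrast most.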
